A study of Mus musculus with 6 samples.

Results

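The clustered protocadherins are a family of cadherin-related adhesion genes that lie side by side in 3 groups, named alpha, beta and gamma. Members were taken by gene symbol (Pcdha, Pcdhac, Pcdhb, Pcdhga, Pcdhgb or Pcdhgc followed by a number) and by location on chromosome 18, which gave 58 genes of the 55804 rows in the count table: 14 alpha, 22 beta and 22 gamma. The study compared a pair of C2C12 groups. C2C12 is an established mouse line of muscle precursor cells that fuse into multinucleated myotubes in low serum. The Ctrl-gRNA cells carried a control guide RNA and are labelled WT. The Prr33-gRNA cells carried a CRISPR/Cas9 guide RNA against Prr33 and are labelled as knocked down. All cells had been in differentiation medium with horse serum for 3 days, and each group had 3 libraries. The labels name neither more than 1 line per guide nor separate cultures, so a guide effect and a difference between the derived lines cannot be told apart, and the spread that the p-values rest on may be no more than technical. In Ctrl-gRNA, 1137, 990 and 913 counts fell on Prr33 itself, against 793, 829 and 848 in Prr33-gRNA, a log2 fold change of -0.42 (SE 0.07; edgeR adjusted p = 1.37e-06).

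Clustered protocadherins are best known from neurons, where each cell expresses a small set of isoforms drawn from the clusters and the resulting combination marks the cell's own surface. Each alpha or gamma gene has its own large first exon with its own promoter, which encodes the extracellular cadherin domains and the membrane span and is spliced to constant exons shared by the whole cluster. Beta genes have no constant exons. CTCF and cohesin loop a chosen promoter to distant enhancers, and promoters that are not chosen carry DNA methylation, which the silencing factor SMCHD1 helps to maintain. The last genes of the alpha and gamma clusters, Pcdhac1, Pcdhac2, Pcdhgc3, Pcdhgc4 and Pcdhgc5, are called C-types and are more alike to each other than to their neighbours.

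The shape of these clusters decides what a count per gene can show. In mm10 the alpha cluster runs from 36930184 to 37187661 on chromosome 18, the beta cluster from 37264938 to 37524479 and the gamma cluster from 37661793 to 37841873, all on the plus strand. Each of the 58 genes has the same start, end and exonic length in the count table as in GENCODE M21. There, 2860 to 2864 bases of each alpha gene and 2116 to 3157 bases of each gamma gene are shared with other members. Reads over the shared exons were not given to every gene of the gamma cluster, since Pcdhga10 has 0 counts in each library while Pcdhgc3, which has the same constant exons, has at least 1684. Levels are therefore compared between genes per kilobase of a gene's own exons, meaning exonic bases that no other annotated gene covers on either strand. Own sequence ranged from 404 to 3028 bases in alpha, from 1107 to 8695 in beta and from 0 to 4614 in gamma genes. Pcdhga10 is the gene with 0 own bases, because the antisense gene Gm26672 covers what the constant exons leave. If reads were counted without regard to strand, its count of 0 says nothing about its level. Counted by strand it would have 2613 own bases, and the strand setting is not known. The members also resemble each other: among tested genes, up to 9.52% of the 50-base stretches of a beta gene's own sequence and up to 16.8% for a gamma gene occur in a transcript of another gene, and at 100 bases up to 0.51% and 9.63%. Reads from such stretches may have been discarded or split between copies, and the gene with the highest of these shares among those tested is Pcdhgb1.

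Total counts per library ran from 17006381 to 19471762, and CPM values here are counts scaled to the TMM-adjusted library size, so that 3 counts equal 0.150 to 0.182 CPM. The 10 defining markers of skeletal muscle, among them Myod1, Myog, Des and Myh3, were all tested, with summed levels of 30450 to 30980 CPM in Ctrl-gRNA and 15897 to 16829 CPM in Prr33-gRNA, and 9 fell and 1 rose. Of 12 neuron markers 8 reached 3 counts in some library. Rbfox3, Snap25 and Elavl4 were at 0 in every library, and the summed level was 77.0 to 84.1 CPM in Ctrl-gRNA and 82.7 to 83.4 CPM in Prr33-gRNA. Of 11 glial markers 6 reached 3 counts, Sox10, Olig1, Olig2 and Aqp4 were at 0, and the sum was at most 4.62 CPM in any library. Of 10 fibroblast markers 7 were tested, 6 fell and 1, Col1a2, rose (6.66 CPM in Ctrl-gRNA and 41.4 CPM in Prr33-gRNA). The sum of the 10 went from 1743 to 1878 CPM in Ctrl-gRNA to 831 to 898 CPM in Prr33-gRNA. Over all tested genes 25.5% were called higher and 26.6% lower (edgeR, adjusted p below 0.05). The part of the muscle and fibroblast shifts in the results below was not tested. In bulk RNA, fewer cells that express a gene and less RNA per cell cannot be told apart, so isoform choice is described here for the mixed RNA of a culture and not for single cells.

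The alpha cluster was at the limit of detection in both groups. Its 14 genes together took 2, 3 and 3 counts in Ctrl-gRNA against 2, 0 and 4 in Prr33-gRNA. Of these, 10 genes, including both C-types Pcdhac1 and Pcdhac2, had 0 counts in every library, where 3 counts would stand for the 0.150 to 0.182 CPM given above. Among them Pcdha4 offers 404 own bases and the others 1268 to 3028. The symbol Pcdha11 stands on 2 rows of the table, and the one that starts at 37005203 is the one with counts, a position that RefSeq (GRCm38.p6) gives to Pcdha10. The remaining 4 alpha genes, Pcdha3, Pcdha7, Pcdha9 and that Pcdha11 row, had at most 4 counts in any library. No alpha gene was tested, and no difference between the groups was detectable at this depth.

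**Figure D1:**
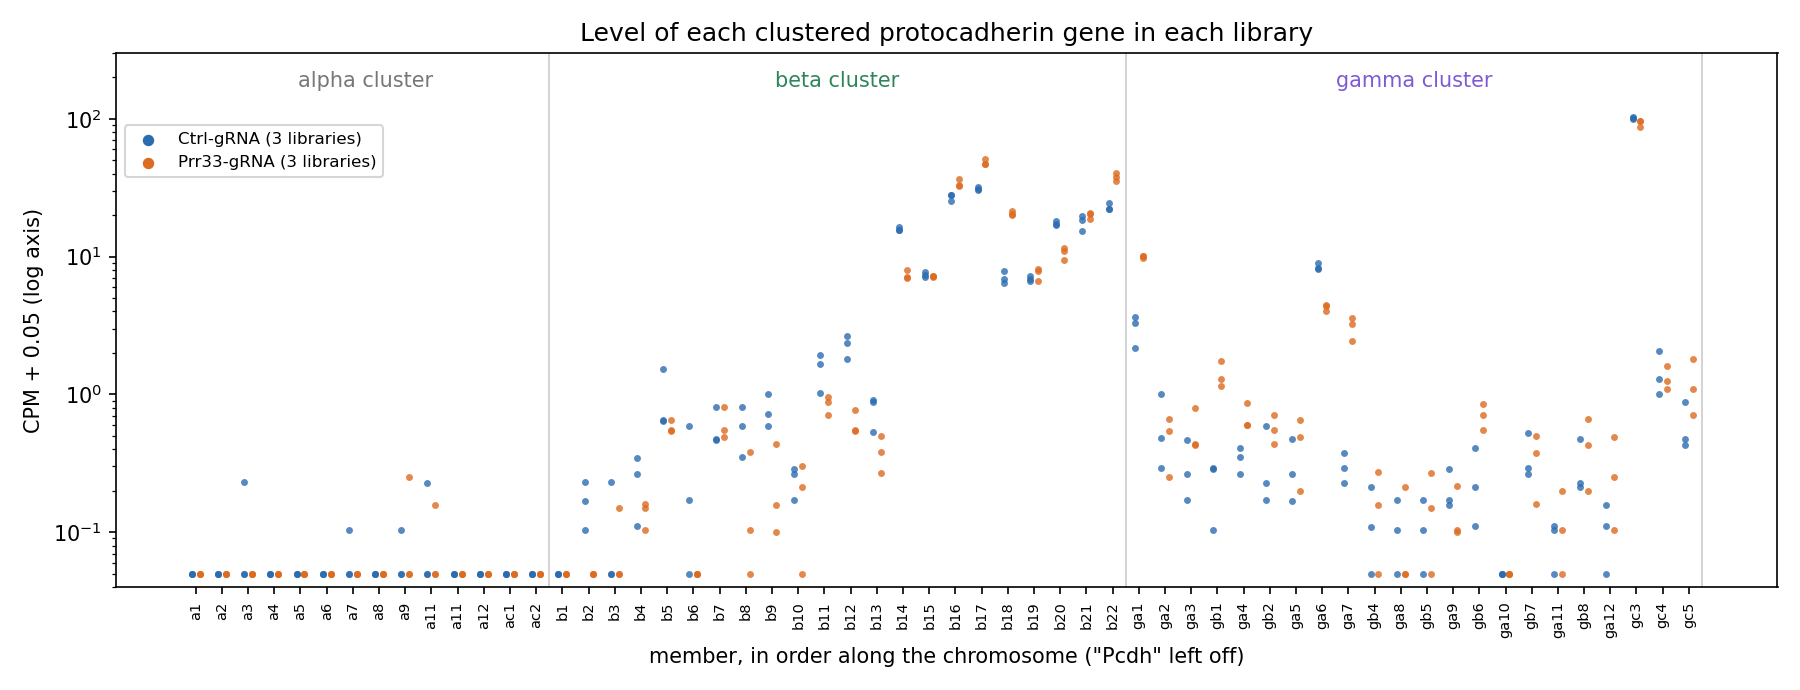
Level of each of the 58 genes in each library, as CPM + 0.05 on a log axis, in order along the chromosome; each point is 1 library, blue for Ctrl-gRNA and orange for Prr33-gRNA, and points at the bottom are 0 counts. Alpha genes sit at or near 0, beta genes from Pcdhb14 onward are the ones that reach several CPM, and Pcdhgc3 stands above all others at 87.6 to 103 CPM.

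The beta cluster was expressed mainly from its far end. The 9 genes from Pcdhb14 to Pcdhb22 took 95.1% ± 0.891 (SD, n = 3) of the cluster's counts in Ctrl-gRNA and 98.3% ± 0.129 in Prr33-gRNA. The 13 genes from Pcdhb1 to Pcdhb13 summed to 6.79 to 9.35 CPM in Ctrl-gRNA and 2.99 to 3.65 CPM in Prr33-gRNA, and Pcdhb1 had 0 counts throughout. Across the 22 genes, the level per own kilobase was higher for genes further along the cluster (Spearman rho 0.878 in Ctrl-gRNA and 0.901 in Prr33-gRNA, given as a description, since genes are not independent replicates and share the libraries). In Ctrl-gRNA the order was led by Pcdhb17 at 6.65 ± 0.188 CPM per own kb, Pcdhb16 at 5.19 ± 0.290 and Pcdhb20 at 4.89 ± 0.158. The libraries of Pcdhb16 and Pcdhb20 overlapped, and those of Pcdhb17 lay above both. In Prr33-gRNA the leading genes were Pcdhb17 at 10.3 ± 0.468 CPM per own kb, Pcdhb16 at 6.49 ± 0.444 and Pcdhb22 at 6.13 ± 0.380, of which the latter pair overlapped. Pcdhb20 stood sixth there, at 2.97 ± 0.305. Of the genes before Pcdhb14, Pcdhb12 stood highest in Ctrl-gRNA. It had rank 7 there at 2.01 ± 0.386 CPM per own kb, above Pcdhb14, Pcdhb18 and Pcdhb19. Its libraries overlapped those of Pcdhb14. With bases covered by an antisense gene counted as its own, the level of Pcdhb12 was 0.734 CPM per kb.

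Of the 22 beta genes 12 passed the filter on low counts, and 4 of them rose, 4 fell and 4 did not pass the test (edgeR, adjusted p below 0.05). Across all 14651 tested genes 25.5% were called higher and 26.6% lower, 52.1% in all. The rises were those of Pcdhb16, Pcdhb17, Pcdhb18 and Pcdhb22. Pcdhb17, the most highly expressed beta gene, had 30.3, 30.8 and 32.0 CPM in Ctrl-gRNA and 47.1, 50.6 and 46.5 CPM in Prr33-gRNA, a log2 fold change of 0.63 (SE 0.07; edgeR adjusted p = 1.38e-09). Pcdhb22, the last gene of the cluster, had 21.9, 24.3 and 22.2 CPM against 35.3, 37.8 and 40.02 CPM, a log2 fold change of 0.73 (SE 0.08; edgeR adjusted p = 1.66e-09). The groups did not overlap for either gene. The first 455 bases of Pcdhb22 coincide with the end of Pcdhb21, whose own level did not pass the test.

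Pcdhb18 showed the greatest rise among the tested beta genes. It had 7.84, 6.85 and 6.37 CPM in Ctrl-gRNA and 20.0, 20.2 and 21.2 CPM in Prr33-gRNA, 2.91-fold higher (log2 fold change 1.54, SE 0.12; edgeR adjusted p = 1.98e-13). All Prr33-gRNA libraries were far above all Ctrl-gRNA libraries. Pcdhb18 (37489465 to 37494505) starts 11 bases after the annotated end of Pcdhb17 (37484795 to 37489454) on the same strand, so reads of a Pcdhb17 transcript that ran on would count for Pcdhb18, and the share of such reads was not tested. The ratio of Pcdhb18 counts to Pcdhb17 counts was 0.227 ± 0.0301 (SD, n = 3) in Ctrl-gRNA and 0.426 ± 0.0284 in Prr33-gRNA, so the counts of Pcdhb18 rose by more than those of Pcdhb17. Pcdhb16, the next gene upstream of Pcdhb17, had 28.1, 27.8 and 25.4 CPM against 32.3, 32.9 and 36.6 CPM, a smaller rise with no overlap between the groups (log2 fold change 0.32, SE 0.08; edgeR adjusted p = 8.73e-04).

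The falls were those of Pcdhb11, Pcdhb12, Pcdhb14 and Pcdhb20. Pcdhb14 (37447656 to 37456350) had 16.3, 15.5 and 15.5 CPM in Ctrl-gRNA and 7.02, 7.97 and 6.95 CPM in Prr33-gRNA, 2.16-fold lower (log2 fold change -1.11, SE 0.12; edgeR adjusted p = 1.79e-09). Pcdhb20, which lies between genes that did not pass the test, had 17.2, 16.98 and 18.04 CPM against 10.98, 9.35 and 11.4 CPM (log2 fold change -0.72, SE 0.11; edgeR adjusted p = 1.75e-06). Neither gene's groups overlapped. Pcdhb12 had fewer reads, with 48, 29 and 39 counts in Ctrl-gRNA against 9, 13 and 10 in Prr33-gRNA, and had the deepest fall of the tested beta genes (log2 fold change -1.96, SE 0.35; edgeR adjusted p = 1.7e-05). Of its 3034 exonic bases 1927 are also covered by the antisense gene Gm37446, which had 0 counts in every library; without a known strand setting, reads of the pair cannot be told apart. Pcdhb11 had 18, 31 and 27 counts against 12, 15 and 18, and its call was narrow (log2 fold change -0.89, SE 0.37; edgeR adjusted p = 0.0417). It was kept in 2 of the 14 alternative fits that tested it and lost in the others, among them every fit that left out Ctrl-gRNA replicate 2 or 3 (edgeR adjusted p = 0.215 and 0.112) or Prr33-gRNA replicate 1, 2 or 3 (0.135, 0.0721 and 0.0564).

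Pcdhb15, Pcdhb19, Pcdhb21 and Pcdhb5 did not pass the test. Pcdhb15 had 7.33 ± 0.295 CPM in Ctrl-gRNA and 7.12 ± 0.0695 CPM in Prr33-gRNA (log2 fold change -0.04, SE 0.15), and its value turned to 0.05 under scaling by library size alone. Pcdhb19 had 6.85 ± 0.324 against 7.50 ± 0.767 CPM (0.13, SE 0.15). Pcdhb21 had 17.8 ± 2.20 against 19.9 ± 0.953 CPM (0.15, SE 0.10), and was called higher, at 0.24, under library-size scaling alone. All 3 had overlapping groups and sit between genes that changed, so genes that rose, fell and did not pass are interspersed along the cluster. Pcdhb5 had 11, 10 and 25 counts against 9, 9 and 12 (log2 fold change -0.74, SE 0.45; edgeR adjusted p = 0.176). The other 10 beta genes had at most 16 counts in any library and were not tested. Among them the groups did not overlap in CPM for Pcdhb2, Pcdhb9 and Pcdhb13, the last by a narrow margin (lowest Ctrl-gRNA library 0.485 CPM, highest Prr33-gRNA library 0.450 CPM): Pcdhb9 had 10, 11 and 16 counts in Ctrl-gRNA against 2, 7 and 1 in Prr33-gRNA, Pcdhb13 had 16, 8 and 14 against 4, 6 and 9, and Pcdhb2 had 1, 3 and 2 against 0 in each library. Across all tested genes, which passed the filter that these genes did not, the groups did not overlap for 57.9%.

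**Figure D2:**
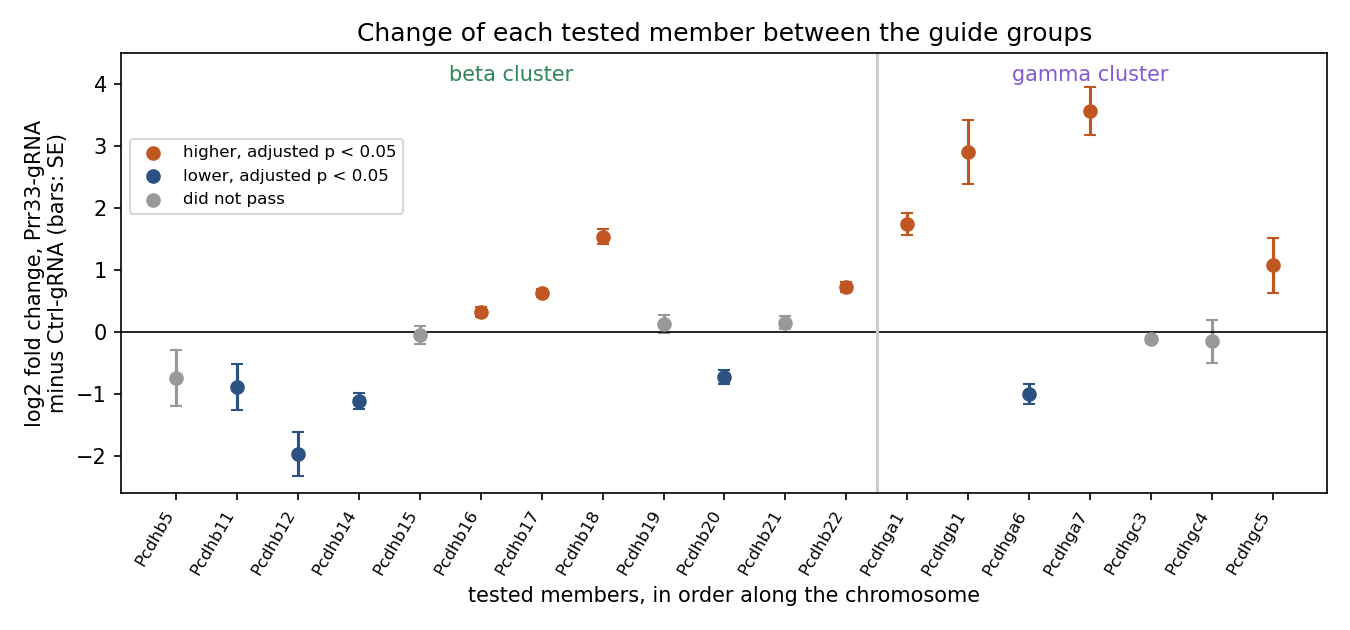
Log2 fold change of Prr33-gRNA minus Ctrl-gRNA for the 19 tested members, in order along the chromosome, with the SE as bars; orange marks genes called higher, dark blue genes called lower and grey genes that did not pass. Genes called higher and lower are interspersed, from -1.96 for Pcdhb12 to 3.57 for Pcdhga7.

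The gamma cluster was dominated by the C-type gene Pcdhgc3. Pcdhgc3 (37806364 to 37841873) had 101, 103 and 100.3 CPM in Ctrl-gRNA and 96.0, 96.8 and 87.6 CPM in Prr33-gRNA. The Prr33-gRNA libraries were all lower, but the difference did not pass the test (log2 fold change -0.11, SE 0.05; edgeR adjusted p = 0.0674), and it was called lower, at -0.14, without Prr33-gRNA replicate 2 (adjusted p = 0.0391). Per own kilobase Pcdhgc3 stood at 55.5 ± 0.705 CPM in Ctrl-gRNA and 51.3 ± 2.81 in Prr33-gRNA, against 3.23 ± 0.164 and 3.51 ± 0.0561 for the second gene of each group, Pcdhga6 and Pcdhga1. The antisense gene BC037039 covers part of its exons and had 9 to 16 counts per library. Counting those bases as its own lowers the level to 29.9 and 27.6 CPM per kb, which is still the highest of the 58 genes. The other C-types were low: Pcdhgc4 had 23, 33 and 16 counts against 22, 28 and 21 and did not pass the test, and its log2 fold change of -0.14 became 0.20 without Ctrl-gRNA replicate 2.

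Of the 22 gamma genes 7 were tested, and 4 rose, 1 fell and 2, Pcdhgc3 and Pcdhgc4, did not pass. Across all tested genes 25.5% were called higher and 26.6% lower, 52.1% in all. Pcdhga1, the first gene of the cluster (start 37661793), had 60, 35 and 60 counts in Ctrl-gRNA against 184, 177 and 202 in Prr33-gRNA. In CPM that was 2.98 ± 0.761 against 9.97 ± 0.159, 3.33-fold higher with no overlap (log2 fold change 1.74, SE 0.18; edgeR adjusted p = 3.41e-10). Pcdhga7 had 6, 4 and 3 counts against 59, 43 and 71, the highest fold of the tested members (log2 fold change 3.57, SE 0.39; edgeR adjusted p = 1.24e-09). Pcdhgb1 had 1, 4 and 4 counts against 31, 20 and 25 (log2 fold change 2.90, SE 0.51; edgeR adjusted p = 1.25e-05). Both were barely detected in Ctrl-gRNA and seen in each Prr33-gRNA library. Pcdhga6 went the other way, with 153, 134 and 150 counts against 73, 80 and 86, or 8.45 ± 0.429 against 4.23 ± 0.236 CPM (log2 fold change -0.99, SE 0.16; edgeR adjusted p = 3.7e-06). Pcdhga6 (start 37707039) and Pcdhga7 (start 37714764) are next to each other in the cluster.

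Pcdhgc5 was also called higher, on few counts. Its counts were 7, 7 and 14 in Ctrl-gRNA against 12, 32 and 21 in Prr33-gRNA, and the groups overlapped (log2 fold change 1.08, SE 0.44; edgeR adjusted p = 0.0401). The call was lost in 8 of the 14 alternative fits that tested it. These include leaving out Prr33-gRNA replicate 2 (0.65, adjusted p = 0.297), Prr33-gRNA replicate 3 (adjusted p = 0.0547), Ctrl-gRNA replicate 1 (adjusted p = 0.161) and Ctrl-gRNA replicate 2 (adjusted p = 0.138). Pcdhga7, Pcdhgb1 and Pcdhgc5 passed the filter on low counts with too few Ctrl-gRNA libraries above 0.566 CPM, and Pcdhb5 and Pcdhb12 with too few Prr33-gRNA libraries. Such genes enter the test through the group where they are high, so the number of gamma genes called is a description and supports nothing on the cluster as a whole.

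The other 15 gamma genes had at most 16 counts in any library. Among these, the groups did not overlap in CPM for Pcdhga4, with 4, 5 and 6 counts against 15, 10 and 11, and for Pcdhgb6, with 3, 1 and 6 against 12, 9 and 16. The share without overlap was 57.9% over all tested genes, which passed the filter that this pair did not. Summed by type, the 7 Pcdhgb genes took 70 counts in Ctrl-gRNA and 192 in Prr33-gRNA over all libraries, or 1.35 ± 0.138 and 3.40 ± 0.561 CPM. The 12 Pcdhga genes summed to 13.3 ± 1.41 and 19.7 ± 0.420 CPM. The 3 Pcdhgc genes summed to 103 ± 1.69 and 95.9 ± 5.50 CPM. The Pcdhga and Pcdhgb sums were higher in every Prr33-gRNA library than in any Ctrl-gRNA library, and the Pcdhgc sum was lower in each. Single genes weighed heavily in these sums. Over all libraries Pcdhga1 went from 155 to 563 counts and Pcdhga7 from 13 to 173, while Pcdhga6 went from 437 to 239. Pcdhgb1 went from 9 to 76, and Pcdhgc3, which did not pass, held most Pcdhgc counts. The sums therefore do not describe each gene of a type.

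The beta genes summed to 164, 161 and 158 CPM in Ctrl-gRNA and 188, 198 and 202 CPM in Prr33-gRNA, a ratio of means of 1.22 with no overlap. The gamma genes summed to 117, 118 and 118 CPM against 122, 122 and 113 CPM, a ratio of 1.01 with overlapping groups. Sums over chosen genes were given no test. Among single members, 13 of the 19 tested were called, 8 higher and 5 lower, and 13 did not overlap between the groups (68.4% in each case, against 52.1% called and 57.9% not overlapping over all tested genes). Past a 2-fold difference there were 5 higher (Pcdhb18, Pcdhga1, Pcdhgb1, Pcdhga7 and Pcdhgc5) and 2 lower (Pcdhb12 and Pcdhb14), a level that 2.91% of all tested genes reached upward and 7.96% downward, 10.9% in all. Pcdhgb1, Pcdhga7, Pcdhgc5 and Pcdhb12, called and past 2-fold, entered the test through the group where they are high. Nothing is therefore read from the counts of called, non-overlapping or 2-fold members. The fold changes of single members ranged from 3.90-fold lower (Pcdhb12) to 11.9-fold higher (Pcdhga7).

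The make-up of each cluster differed between the groups. As a percentage of beta counts, Pcdhb18 went from 4.36 ± 0.390 (SD, n = 3) in Ctrl-gRNA to 10.4 ± 0.209 in Prr33-gRNA, Pcdhb17 from 19.3 ± 0.889 to 24.6 ± 1.31, and Pcdhb22 from 14.2 ± 0.856 to 19.2 ± 0.555. Pcdhb14 went from 9.80 ± 0.176 to 3.73 ± 0.289 and Pcdhb20 from 10.8 ± 0.523 to 5.41 ± 0.596. The groups did not overlap for any of these 5 shares, whereas those of Pcdhb16 (16.8 ± 0.671 and 17.3 ± 0.777) and Pcdhb21 (11.05 ± 1.18 and 10.1 ± 0.216) did. The 8 leading genes were needed to hold 90% of beta counts in each Ctrl-gRNA library and 7 in each Prr33-gRNA library. Weighted by their shares, the effective number of beta isoforms (the exponential of the Shannon entropy) was 9.62 ± 0.257 in Ctrl-gRNA and 7.86 ± 0.0320 in Prr33-gRNA.

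The gamma cluster shifted the opposite way on the same measure. Pcdhgc3 held 85.9% ± 1.05 of gamma counts in Ctrl-gRNA and 78.5% ± 0.880 in Prr33-gRNA. Pcdhga1 went from 2.53% ± 0.648 to 8.39% ± 0.492, Pcdhga7 from 0.211% ± 0.0637 to 2.58% ± 0.602 and Pcdhgb1 from 0.151% ± 0.0906 to 1.13% ± 0.241, while Pcdhga6 went from 7.17% ± 0.345 to 3.56% ± 0.279. None of these 5 shares overlapped between the groups. In Ctrl-gRNA 2 genes, and in Prr33-gRNA 3 genes, held 90% of gamma counts in each library. The effective number of gamma isoforms was 1.93 ± 0.0730 in Ctrl-gRNA and 2.62 ± 0.0470 in Prr33-gRNA. On shares of CPM per own kilobase, the effective numbers were 10.3 ± 0.297 and 8.29 ± 0.0620 in beta and 1.65 ± 0.0530 and 2.12 ± 0.0600 in gamma, so the direction held in both clusters. These shares were not tested, because with 3 libraries against 3 an exact permutation test cannot go below 0.10.

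**Figure D3:**
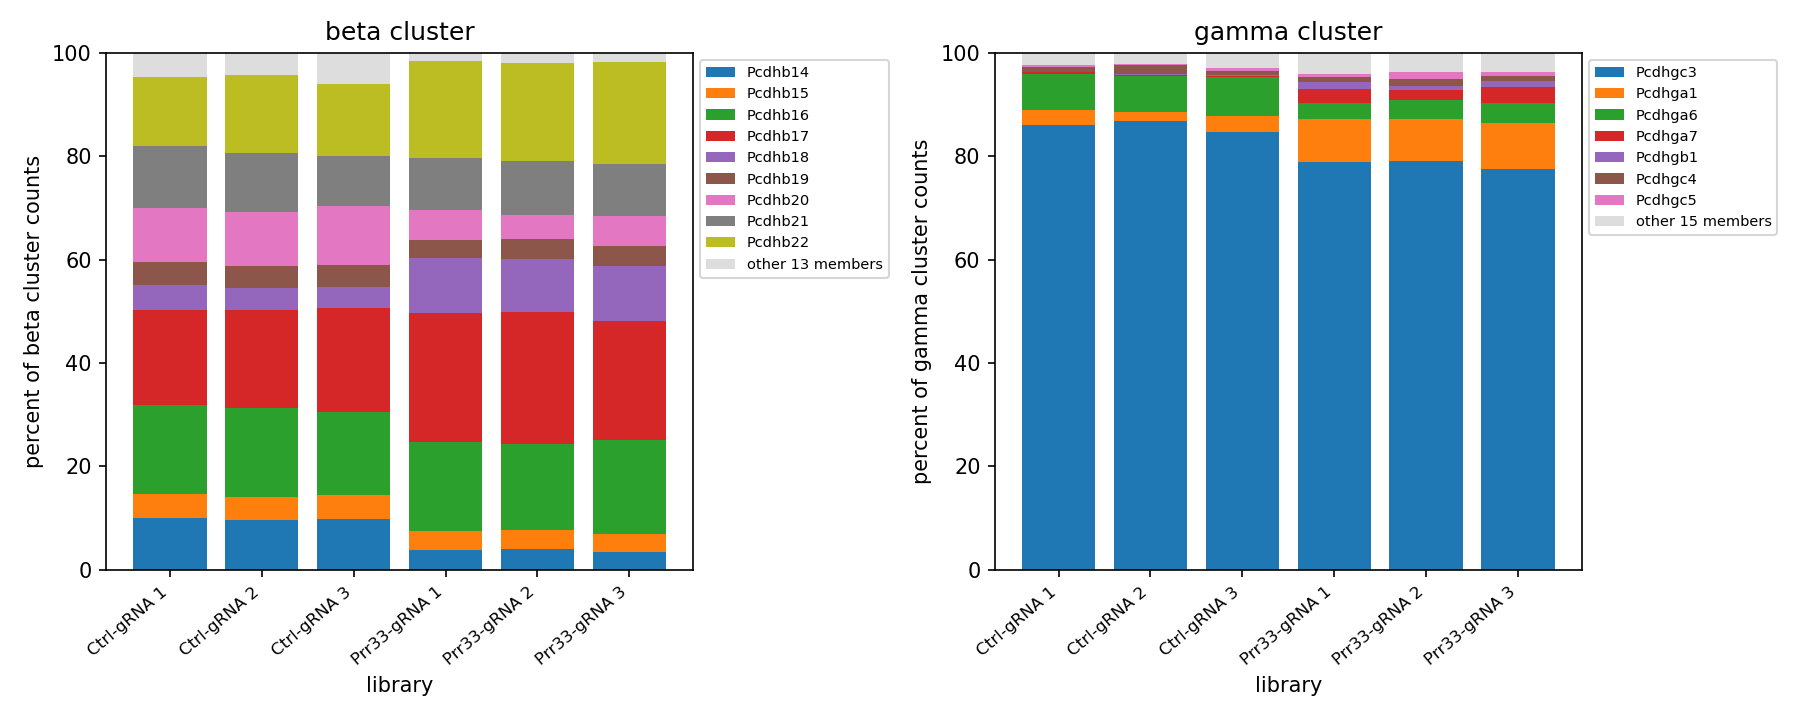
Share of each cluster's counts taken by its members, in percent, for each of the 6 libraries, with beta on the left and gamma on the right; each bar is 1 library and the remaining members are in light grey. Within a group the libraries look alike, Pcdhb18 widens and Pcdhb14 and Pcdhb20 narrow in the Prr33-gRNA libraries, and the Pcdhgc3 band is smaller and the Pcdhga1 band larger there.

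Around the clusters 29 non-member genes within 500 kb were tested, of which 4 were higher and 3 lower (13.8% and 10.3%). Over all tested genes the shares were 25.5% and 26.6%. Within 1 Mb, 7 of 35 were higher and 4 lower (20.0% and 11.4%). Values within 500 kb ran from -0.67 to 0.75 around a median of -0.03. Taf7, an intronless gene for a subunit of the general transcription factor TFIID, lies on the opposite strand between the beta and gamma clusters. It took 94, 109 and 118 counts in Ctrl-gRNA against 191, 193 and 207 in Prr33-gRNA (log2 fold change 0.75, SE 0.15; edgeR adjusted p = 5.08e-05), the greatest rise of these neighbours, and is named for that value. Next to it, the pseudogene Gm8242 did not pass (-0.47, SE 0.33). Directly after the gamma cluster, Diaph1, which encodes an actin-nucleating formin, rose by 0.17 (SE 0.05), Hdac3, for a histone deacetylase, did not pass (0.10, SE 0.06), Fchsd1 fell by 0.67 and Pcdh1, a protocadherin outside the clusters, fell by 0.14. Before the alpha cluster the nearest tested genes, Zmat2 (0.03), Hars2 (-0.12), Hars (-0.03) and Dnd1 (0.04), did not pass. Over the 386 tested genes of chromosome 18 that are not members, 127 were higher and 75 lower, with a median of 0.04.

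**Figure D4:**
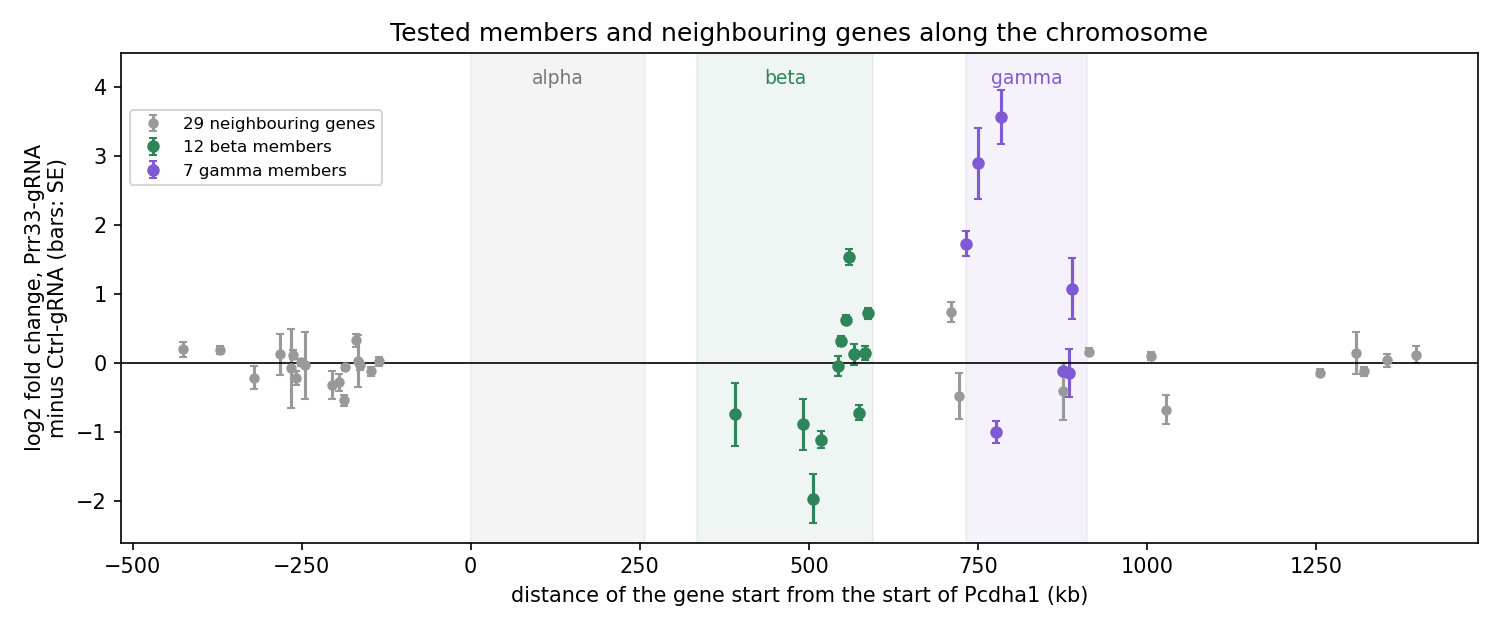
Log2 fold change with SE of the 12 tested beta genes, the 7 tested gamma genes and the 29 tested neighbours, against the distance of the gene start from the start of Pcdha1 in kb; shaded bands are the 3 clusters. Members range from -1.96 to 3.57 and neighbours from -0.67 to 0.75, and no tested gene lies in the alpha band.

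Factors that organise or silence these promoters were all tested. Among 14 genes for CTCF, cohesin and their partners 7 rose and 1 fell, where 25.5% of all tested genes were higher and 26.6% lower (median log2 fold change 0.12, against -0.00). Wapl, which releases cohesin from DNA, fell from 136 ± 1.30 to 81.1 ± 0.882 CPM (-0.75). Pds5a and Pds5b, for proteins that bind cohesin together with WAPL, rose by 0.56 and 0.29, and the cohesin subunit gene Stag2 rose by 0.34. Some further genes of this list are named after their values were seen. Ctcf itself (0.09, SE 0.05) and the cohesin subunit gene Rad21 (-0.01, SE 0.04) did not pass. The cohesin subunit genes Smc3 and Smc1a rose by 0.16 and 0.17. Among 18 genes for DNA methylation and silencing 8 rose and 4 fell (44.4% and 22.2%, median 0.08). Smchd1 rose from 84.7 ± 3.04 to 118 ± 7.75 CPM (0.48), the maintenance methyltransferase gene Dnmt1 rose by 0.32 and the heterochromatin protein gene Cbx3 rose by 0.44. The methyltransferase genes Dnmt3a (-0.04) and Dnmt3b (-0.19), also named after their values were seen, did not pass. Tet1, for an enzyme that starts DNA demethylation, fell from 7.40 ± 0.142 to 3.34 ± 0.406 CPM (-1.15).

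Of the 15 tested genes whose products bind protocadherin tails or act with them, 7 rose and 5 fell (46.7% and 33.3%, median -0.00). Over all tested genes 25.5% were higher and 26.6% lower. Ptk2b, for the kinase PYK2 that gamma and alpha protocadherins inhibit, dropped from 36, 50 and 44 counts in Ctrl-gRNA to 0, 0 and 2, which is 70.9-fold lower (95% interval 19.2 to 591, from counting error). Fyn, for a Src-family kinase, fell from 80.2 ± 3.75 to 44.0 ± 3.05 CPM (-0.87). Within the WAVE complex, which links alpha protocadherins to actin, Cyfip2 rose from 10.8 ± 0.472 to 26.8 ± 1.29 CPM (1.31) and Abi2 rose by 0.45. Of its other subunit genes on the list, named after their values were seen, Wasf1, Nckap1 and Abi1 rose by 0.50, 0.33 and 0.32, Wasf2 fell by 0.27, Cyfip1 fell by 0.15 and Brk1 did not pass.

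Genes of other cadherin families also rose and fell, where 25.5% of all tested genes were higher and 26.6% lower. Each list below has 5 tested genes, so nothing is read from its counts. Of 12 protocadherins outside the clusters 5 were tested, 2 rose and 2 fell (median -0.02). Pcdh7 rose from 40.9 ± 2.69 to 64.9 ± 2.29 CPM (0.67), and Pcdh10 rose from 4, 0 and 0 counts to 44, 52 and 49, with all its Ctrl-gRNA counts in 1 library. Pcdh19 fell from 88.6 ± 2.87 to 69.6 ± 2.95 CPM (-0.35). Of 15 classical and related cadherins 5 were tested, 1 rose and 3 fell (median -0.14). N-cadherin, encoded by Cdh2 and used by myoblasts to adhere before fusion, rose from 415 ± 5.22 to 599 ± 9.06 CPM (0.53). Cdh13, for a cadherin anchored by a lipid, fell from 173 ± 3.13 to 66.4 ± 1.88 CPM (-1.38), Cdh24 fell by 0.74, and the muscle cadherin gene Cdh15, also on the muscle marker list, fell by 0.14. Among 5 tested catenins, which tether classical cadherins to the cytoskeleton, Jup fell from 203 ± 6.34 to 66.7 ± 0.455 CPM (-1.60), Ctnna1 rose by 0.12, and 3 did not pass (median of the 5, -0.11).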

How the data were processed

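RNA-seq of 6 C2C12 libraries was used as raw read counts per gene, deposited by the authors without normalization. The submitters' processing notes name CASAVA, HISAT2 2.0.5, featureCounts 1.5.0-p3 and mm10. Roles, strand setting and annotation release are not given in the sources used here. FPKM values deposited by the authors served for alternative tests and alternative shares alone. All genes entered one quasi-likelihood F test in edgeR 4.0.16 (R 4.3.3) with filterByExpr as the filter on low counts and TMM factors, and Benjamini-Hochberg adjustment over the 14651 tested and a threshold of 0.05. The SE is the absolute log2 fold change over the square root of F. The procedure was checked on simulated data. Chi-square per gene between libraries of a group was 2.76 to 5.32, so none was counted as a duplicate. Own exonic bases, and stretches of 50 and 100 bases shared with other transcripts, come from GENCODE M21 (GRCm38). Alternatives were RLE factors, library size alone, DESeq2 1.42.0, limma-voom, limma 3.58.1 on log2(FPKM + 1) and log2(FPKM + 0.1), other filters and thresholds, a replicate block, and leaving out each library. Named genes were all members, up to 4 genes per list by adjusted p, and the 4 nearest tested neighbours on each side. Some further list genes were named after their values were seen. Members and lists were chosen with earlier results of these data known. A list of genes for proteolytic processing is not reported here. Intervals cover counting error only, because read counts without molecular identifiers do not count molecules. Figures were drawn with matplotlib 3.10.9.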

Additional observations from a re-analysis of the deposited data

How the results depend on the processing

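Across 15 alternative fits, 258 of 282 values for the 19 tested members kept their direction and side of the threshold, 20 lost the call (12 for Pcdhb11 and 8 for Pcdhgc5), 2 gained it and 2 changed sign without a call. The sign changes were Pcdhb15 (0.05, library size alone) and Pcdhgc4 (0.20 without Ctrl-gRNA replicate 2, in a range of -0.35 to 0.20 when single libraries were left out). With a 2-fold minimum added, the calls were 5 members higher and 2 lower, with 1 and 2 in beta and 0 lower in gamma. Without that minimum, leaving out single libraries gave 1 to 2 gamma genes lower, where the main fit gave 1. Deviations of same-numbered libraries were uncorrelated (r = -0.01, -0.01 and 0.02), so no pairing by number was seen. Such a check cannot exclude that same-numbered libraries were handled together. A replicate block gave 8 members higher and 4 lower, losing Pcdhb11 (-0.88, edgeR adjusted p = 0.0509). Under library size alone the beta and gamma sums in Ctrl-gRNA were 156 and 114 CPM, with ratios of 1.29 and 1.07, and 7 neighbours were higher, as within 1 Mb. Shares were also computed on lengths, the per-kb forms after the data were seen. Pcdhgc3 then held 84.7% (FPKM), 90.02% (own kb) or 83.4% (own kb by strand) in Ctrl-gRNA, and 84.6% or 76.2% on the latter scales in Prr33-gRNA. Pcdhga1 held 1.70% and 5.79% per own kb, Pcdhb17 26.4% of FPKM in Prr33-gRNA, and Pcdhb18 10.1% by either per-kb form in Prr33-gRNA. In the same order of scales, Pcdhb14 held 5.49%, 5.19% and 5.38% in Ctrl-gRNA against 2.15%, 2.08% and 2.10% in Prr33-gRNA. Genes with fewer than 3 libraries past 0.566 CPM, or 10 counts at the median library size, were not tested in the main fit.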
